A study of Mus musculus with 3 samples.

Results

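Plasmacytoid dendritic cells (pDCs) were described in 3 single-cell RNA-seq libraries of mouse liver, one for each of the conditions CON, HFD and CCL4. Members were chosen by what they themselves expressed, counted in unique molecular identifiers (UMIs), of which each captured transcript carries a single one. A barcode was taken where mitochondrial genes held at most 30% of its UMIs, where it had at least 2 UMIs of Siglech, at least 4 UMIs over Siglech, Ccr9, Cox6a2, Klk1, Tcf4 and Runx2 together and at most 2 UMIs over C1qa, C1qb and C1qc, and where Cd3e, Ms4a1 and Clec4f had 0 UMIs. By this rule 341 of 36990 barcodes were pDCs, with 180 of 11245 in CON, 55 of 12984 in HFD and 106 of 12761 in CCL4. The 6 genes of the rule are called the gate genes, and their levels are given as a description of how the cells were chosen.

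The libraries came from male C57BL/6J wild-type mice aged 8 weeks at the start, with hepatocytes and non-parenchymal cells of 2 mice mixed in equal number for each library. CON mice were the controls. HFD mice received a high-fat diet (60% of kcal) over 4 months, a model of fatty liver. CCL4 mice ate chow for 3 months and were then injected intraperitoneally with 0.1 mL of 10% CCl4, a hepatotoxin used to model fibrosis, 2 times per week for 4 weeks. With 1 pooled library per condition there is no replicate, no difference between conditions was tested, and every interval below covers counting error only.

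pDCs are immune cells of the dendritic lineage that sense viral and self nucleic acids inside endosomes. They carry TLR7 and TLR9 there, pass the signal through MyD88 to IRF7 and can release large amounts of type I interferon. Their fate is held by the E protein TCF4 (E2-2), a basic helix-loop-helix factor that binds E-box sequences, together with RUNX2, SPIB and IRF8. In the liver they circulate through the sinusoids among a majority of hepatocytes, T cells, B cells and macrophages.

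The markers of pDCs were present. Siglech (ENSMUSG00000051504), a sialic acid-binding receptor that signals through DAP12, was at 1542 CPM in CON, 1054 CPM in HFD and 1224 CPM in CCL4, where CPM is UMIs per 1000000 UMIs of the summed cells. Ccr9 (ENSMUSG00000029530), a chemokine receptor for gut homing, was at 1489 CPM in CON, 723 CPM in HFD and 864 CPM in CCL4. Cox6a2 (ENSMUSG00000030785), a cytochrome c oxidase subunit otherwise typical of heart and muscle, was at 899 CPM in CON, 524 CPM in HFD and 618 CPM in CCL4. All 3 markers were low in B cells, T cells, conventional DCs and hepatocytes gated from the same libraries, where Siglech was required to be at 0 and the highest level of Ccr9 and Cox6a2 was 46.9 CPM. Of the pDCs, 147 in CON, 33 in HFD and 59 in CCL4 had UMIs of all 3 markers, while 6, 7 and 9 had neither Ccr9 nor Cox6a2.

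Markers that the rule did not use were high as well. Bst2 (tetherin, the antigen of pDC antibodies) was at 2573 CPM in CON, 1664 CPM in HFD and 1435 CPM in CCL4, Ly6d (a surface protein of lymphoid progenitors) at 3475 CPM in CON, 2360 CPM in HFD and 1595 CPM in CCL4 and Irf8 (a transcription factor of dendritic cells) at 2745 CPM in CON, 2075 CPM in HFD and 1209 CPM in CCL4. Ly6c2 was at 826 CPM in CON, 517 CPM in HFD and 552 CPM in CCL4, Spib at 221 CPM in CON, 139 CPM in HFD and 83.5 CPM in CCL4, Pacsin1 at 121 CPM in CON, 92.8 CPM in HFD and 69 CPM in CCL4 and Cd209d at 134 CPM in CON, 79.6 CPM in HFD and 109 CPM in CCL4. Ly6d was also high in B cells, at 1415 CPM in CON, 849.7 CPM in HFD and 949.5 CPM in CCL4. Bst2 reached at most 384 CPM in the 4 other gated groups.

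**Figure D1:**
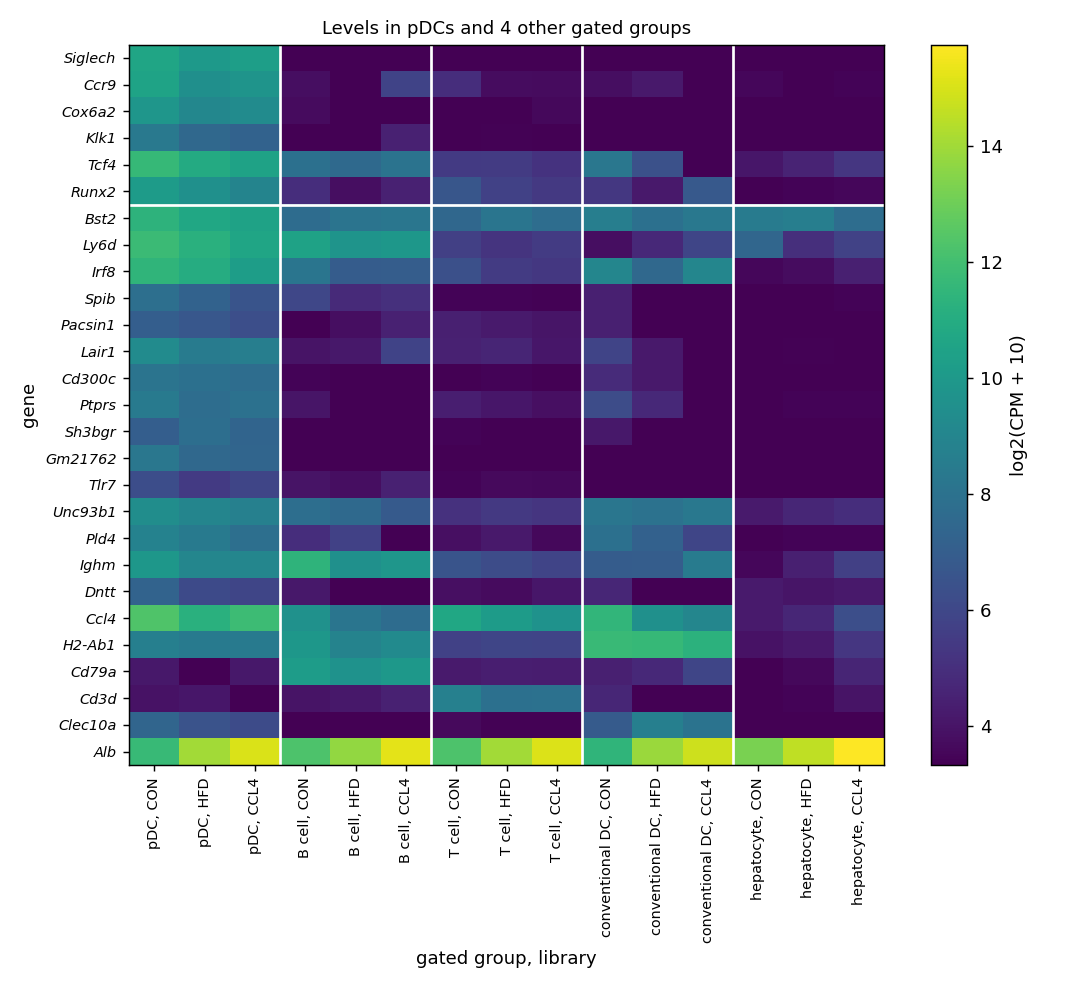
Heat map of log2(CPM + 10) for 27 genes (rows, gate genes above the white line) in 5 gated groups of cells, each in the CON, HFD and CCL4 libraries (columns). The gate genes and Bst2, Irf8, Lair1, Cd300c, Sh3bgr and Gm21762 are bright in the 3 pDC columns, and Alb brightens from CON to HFD to CCL4 in every group.

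Promoters are shown for 3 genes, since TCF4 binds E-boxes. They are the marker genes Siglech and Ccr9, and Cd300c, a receptor of the CD300 family outside the rule. Cd300c stood furthest above the other cells among genes whose promoter was searched. Each sequence is the RefSeq promoter on GRCm38.p6 from 250 bases before the start to 50 after it, read 5′ to 3′ on the gene's strand. The capitals mark matches on either strand to the E-box letters CAGCTG (its own reverse complement, counted once), CACCTG or CAGATG.
Siglech, chr7:55767934-55768233, plus strand: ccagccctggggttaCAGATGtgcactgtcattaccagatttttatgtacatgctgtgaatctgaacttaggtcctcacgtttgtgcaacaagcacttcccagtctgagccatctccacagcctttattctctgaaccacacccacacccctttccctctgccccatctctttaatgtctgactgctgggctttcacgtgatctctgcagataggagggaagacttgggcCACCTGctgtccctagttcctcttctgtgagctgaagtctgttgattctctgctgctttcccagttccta
Ccr9, chr9:123766961-123767260, plus strand: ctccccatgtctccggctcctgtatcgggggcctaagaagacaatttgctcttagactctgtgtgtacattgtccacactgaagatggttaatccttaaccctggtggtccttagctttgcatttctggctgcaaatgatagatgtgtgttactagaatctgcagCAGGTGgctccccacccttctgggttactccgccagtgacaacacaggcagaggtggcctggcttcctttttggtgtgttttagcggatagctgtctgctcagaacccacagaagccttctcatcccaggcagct
Cd300c, chr11:114960458-114960757, minus strand: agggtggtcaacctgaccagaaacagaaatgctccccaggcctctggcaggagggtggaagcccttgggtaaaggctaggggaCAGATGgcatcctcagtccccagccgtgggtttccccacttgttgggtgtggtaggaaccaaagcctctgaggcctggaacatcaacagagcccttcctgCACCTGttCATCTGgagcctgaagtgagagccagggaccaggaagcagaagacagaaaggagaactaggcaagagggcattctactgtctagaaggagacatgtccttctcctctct
Of 6 gate genes and 20 leading genes (those furthest above other cells), 21 had a promoter that was searched and 16 of these held at least 1 of the 3 motifs in at least 1 promoter. No promoter of the gate genes Tcf4 and Cox6a2 was searched. Of all 32817 promoters of this length, 16.3% held CAGCTG, 20.2% held CACCTG, 17.2% held CAGATG and 44.3% held any of them. Genes with several promoters had more chances of a match, and a match is a description of the letters only.

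The share of pDCs among barcodes within the mitochondrial limit was 1.61% in CON (exact binomial 95% interval 1.38 to 1.86%), 0.424% in HFD (0.319 to 0.551%) and 0.831% in CCL4 (0.681 to 1.00%). Hepatocytes were mixed in and count among the barcodes. Gated hepatocytes were 1.31%, 38.2% and 56.2% of barcodes by the same fixed gate. Set against gated T cells, which are immune cells too, there were 180 pDCs beside 1357 T cells in CON, 55 beside 872 in HFD and 106 beside 646 in CCL4. A change in the number of pDCs and a change in the number of other cells captured cannot be told apart here.

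Depth differed between the libraries. The median pDC held 3716 UMIs and 1844 genes in CON (1730 to 15805 UMIs), 2609 UMIs and 1336 genes in HFD (1835 to 5012) and 2432 UMIs and 1202 genes in CCL4 (1687 to 5277). Summed over cells this gave 782243, 150834 and 275321 UMIs. Mitochondrial genes held a median of 1.42%, 1.01% and 0.925% of UMIs in pDCs. No barcode was a pDC in more than 1 library, and 36 to 52 barcodes were shared by any pair of libraries.

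Many HFD and CCL4 members lay at the threshold. With exactly 2 Siglech UMIs there were 12 members in CON, 23 in HFD and 48 in CCL4, and just outside, with 1 Siglech UMI and at least 4 gate UMIs, there were 12, 24 and 50 barcodes. Bst2, outside the rule, averaged 8.75, 4.43 and 3.52 UMIs per cell in members with 2 Siglech UMIs and 7.17, 4.21 and 3.32 UMIs per cell in the barcodes just outside. Siglech per cell had a median of 6 UMIs in CON (2 to 20), 3 in HFD (2 to 8) and 3 in CCL4 (2 to 7). Tcf4 had a median of 13, 5 and 3 UMIs, and Ccr9 of 6, 1 and 2. Cells of the 3 libraries overlapped for each of these genes, with CON reaching the highest counts. No barcode that met the other conditions was left out by the minimum of 4 gate UMIs.

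**Figure D2:**
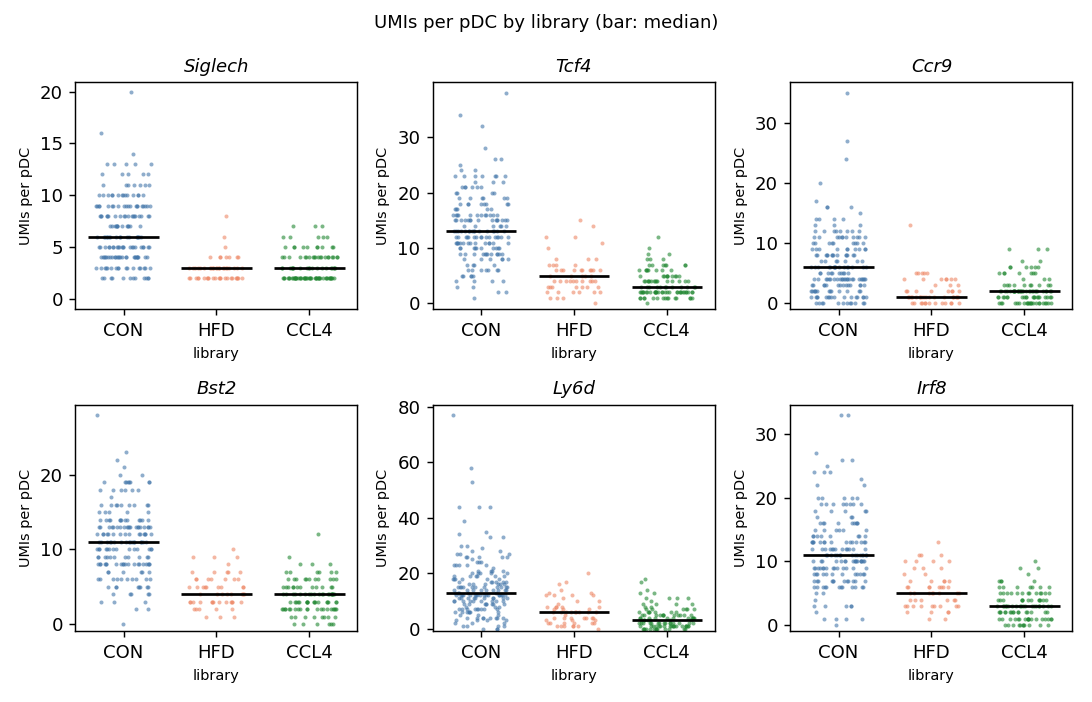
UMIs per pDC (y axis) of 3 gate genes (Siglech, Tcf4, Ccr9) and 3 genes outside the rule (Bst2, Ly6d, Irf8) in the CON, HFD and CCL4 libraries (x axis); each point is 1 pDC and the bar is the median. CON cells hold a median of 11 Bst2 UMIs, and HFD and CCL4 cells 4 each, with overlapping ranges.

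Hepatocyte RNA made up a larger part of pDC UMIs in HFD and CCL4 than in CON. The 15 genes of a hepatocyte list (Alb, Fabp1, Apoa2 and others) held 3.20% of pDC UMIs in CON, 10.3% in HFD and 13.95% in CCL4, with cell medians of 2.11%, 10.2% and 13.8%. All 15 were detected in each library, and the most abundant was Fabp1 in CON and HFD and Alb in CCL4. T cells had cell medians of 3.12%, 11.6% and 15.3%, and gated hepatocytes held 21.3%, 19.8% and 21.9%. Over summed cells the pDCs' share was 14.6% of the hepatocytes' own in CON, 51.0% in HFD and 64.7% in CCL4. CPM values are shares of all UMIs, these included, so levels between conditions are also read against the median shift of genes enriched in pDCs.

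**Figure D3:**
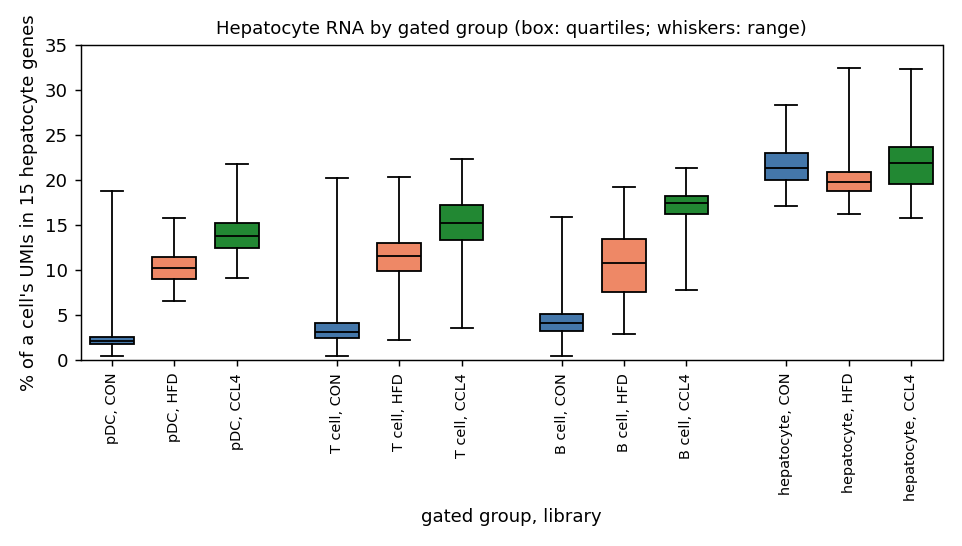
Percent of a cell's UMIs in 15 hepatocyte genes (y axis) for pDCs, T cells, B cells and hepatocytes of the CON, HFD and CCL4 libraries (x axis); boxes are quartiles with the median, whiskers the range. The pDC medians are 2.11% in CON, 10.2% in HFD and 13.8% in CCL4, and those of T cells are somewhat higher in each library.

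Marker lists of Kupffer, T, B, NK and plasma cells and of monocytes each summed to at most 477 CPM in pDCs. The 10 Kupffer cell markers summed to 14.1, 59.7 and 32.7 CPM in CON, HFD and CCL4, led by the iron exporter Slc40a1, with Vsig4, Marco, Cd5l, Timd4 and Folr2, which the rule did not use, at 0 UMIs in all 3. Clec4f, C1qa and C1qc were also at 0, but the rule limited Clec4f and the C1q genes. The 10 T cell markers summed to 106, 72.9 and 40.0 CPM, led by Cd28, with Themis at 0 in CON, Lck and Bcl11b at 0 in HFD and CCL4, and Trac at 0 in CCL4. The 10 B cell markers summed to 51.1, 26.5 and 79.9 CPM, led by Cd79b, Cd22 and Ebf1 in turn, with Ms4a1 at 0 in all 3 by the rule and Pax5 at 0 in CON and HFD. NK cell markers summed to 256, 86.2 and 21.8 CPM (7, 4 and 3 of 8 detected, led by Gzma, Gzma and Klrk1). Monocyte markers summed to 435, 477 and 334 CPM (8, 6 and 6 of 8 detected), led by Fn1, which is also made by hepatocytes. Plasma cell markers summed to 211, 159 and 174 CPM (5, 4 and 4 of 8 detected), led by Slpi, Sdc1 and Slpi.

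Some lists were carried by few cells. Neutrophil markers summed to 1268, 484 and 3.63 CPM (6, 6 and 1 of 8 detected, with Ly6g at 0 in all 3), led by S100a9 in CON, with S100a8 and S100a9 at 34 UMIs each in HFD and 1 S100a8 UMI in CCL4. Of the 370 S100a8 UMIs in CON, 107 lay in 1 of 27 cells. Erythroid markers summed to 6524, 3931 and 4497 CPM (6, 5 and 5 of 6 detected), led by Hbb-bs. Of the 951 Hba-a1 UMIs in CON, 319 lay in 1 of 25 cells. Endothelial markers summed to 385, 159 and 174 CPM (8, 6 and 6 of 8 detected), and 35 of the 120 Ptprb UMIs in CON lay in 1 of 8 cells. Conventional DC markers summed to 582, 272 and 236 CPM (9, 7 and 9 of 10 detected), led by Clec10a, Cd209a and Cd209a, with Xcr1 at 0. UMIs of Cd79a, Cd3d, Cd3g, Trac, Ncr1, Vsig4 or S100a8 were found in 37 of 180, 6 of 55 and 4 of 106 pDCs, with S100a8 in 27, 5 and 1 of them.

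Of 2091 genes outside the gate at 50 CPM or more in pDCs of every library, 62 (2.97%) were at least 2-fold above B cells, T cells, conventional DCs and hepatocytes in all 3 libraries, on a scale of CPM + 10. This is a description, since the cells were chosen by expression. The 62 include the haemoglobin gene Hbb-bt, whose 856, 90 and 163 UMIs lay in 21, 4 and 7 pDCs of CON, HFD and CCL4. The gate for conventional DCs held only 48, 37 and 6 cells. Beside a background of 2.97%, 0 or 1 gene of a short list past the fold is no result about that list, and such counts below only account for the members. The gene furthest apart was Gm21762, a predicted gene, at 298, 172 and 156 CPM in CON, HFD and CCL4 and at 0 to 0.103 CPM in the other groups, with a smallest ratio of 16.4. Cd300c was at 265, 232 and 203 CPM, and Lair1, an inhibitory collagen receptor, at 633, 345 and 381 CPM. Sh3bgr, an SH3-binding protein gene known from muscle, was at 120.2, 212 and 152 CPM.

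The 20 leading genes by smallest ratio had varied roles. Ptprs, a receptor phosphatase, was at 331, 206 and 239.7 CPM, Lrp8, a lipoprotein receptor that binds reelin, at 353, 245 and 102 CPM, and Mctp2, a calcium-binding membrane protein, at 372, 192 and 167 CPM. Rnase6, an antimicrobial ribonuclease, was at 694, 464 and 479 CPM, and St8sia4, which builds polysialic acid, at 1248, 491 and 450.4 CPM. Pacsin1, an adaptor of endocytosis, was at 121, 92.8 and 69 CPM, Cyb561a3, a lysosomal ferric reductase, at 412, 259 and 287 CPM, and Nucb2, the precursor of nesfatin, at 151, 133 and 119.9 CPM. The others were Tmem229b, Smim5, Zc3h12c, Eldr, Man1c1, Bst2, Rell1 and Inpp4a, with smallest ratios of 3.42 to 6.15. Without conventional DCs in the comparison 134 genes were past the fold.

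The identity list outside the gate had 20 of its 25 genes at the level tested, and 11 were past the fold: Bst2, Pacsin1, Spib, Irf8, Cd209d, Atp1b1, Lair1, Cd300c, Smim5, Ptprs and Rpgrip1. The list was drawn up from known pDC genes, so its share above the background of 2.97% was built in. Among 16 tested transcription factors only Irf8 and Spib were past it. Bcl11a, which acts upstream of Tcf4, was at 541 CPM in CON, 252 CPM in HFD and 239.7 CPM in CCL4, above T cells (2.02 to 4.22 CPM) and less so above B cells (58.1 to 149 CPM). Id2, the inhibitor of E proteins, was at 251 CPM in CON, 245 CPM in HFD and 185 CPM in CCL4 and so below T cells (440.5 to 751 CPM) and conventional DCs (489 to 874 CPM) in each library. Batf3 and Zbtb46, factors of conventional DCs, had at most 2 UMIs in the pDCs of any library.

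The machinery around the endosomal sensors was well detected in pDCs. Unc93b1, the chaperone that takes TLRs to the endosome, was at 665 CPM (609 to 724) in CON, 497 CPM (391 to 623) in HFD and 410.4 CPM (338 to 494) in CCL4, above B cells (106 to 212 CPM) and T cells (24.6 to 32.4 CPM). Pld4, an endosomal exonuclease, was at 445 CPM in CON, 332 CPM in HFD and 222 CPM in CCL4 and at 0 to 43.6 CPM in B and T cells. Tlr7, the receptor for single-stranded RNA, had 53 UMIs in CON, 5 UMIs in HFD and 14 UMIs in CCL4, or 67.8 CPM (50.8 to 88.6) in CON, 33.1 CPM (10.8 to 77.4) in HFD and 50.9 CPM (27.8 to 85.3) in CCL4. After thinning each cell to 1000 UMIs, the share of pDCs expected to hold a Tlr7 UMI was 7.19% in CON, 3.38% in HFD and 4.96% in CCL4, and that of T cells 0.109% in CON, 0.21% in HFD and 0.193% in CCL4. Unthinned, at median depths of 3716, 2609 and 2432 UMIs in pDCs and 2532, 2320 and 2090 UMIs in T cells, the shares were 23.9% in CON, 9.09% in HFD and 11.3% in CCL4 for pDCs and 0.221% in CON, 0.688% in HFD and 0.464% in CCL4 for T cells. Tlr9, the receptor for CpG DNA, had 0 UMIs in CON and HFD and 1 in CCL4. The counts of 0 allow up to 3.83 CPM in CON and 19.9 CPM in HFD (3 UMIs of the total). Tlr8 and Tlr3 had 0 UMIs in pDCs throughout.

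Of the 7 tested genes of endosomal sensing 0 were past the fold against the 4 other groups, beside 2.97% of all genes tested. Conventional DCs also held Unc93b1 (248 to 303 CPM) and Pld4 (50.5 to 229.8 CPM). In CCL4 the conventional DCs were 6 cells with 19782 UMIs in all, so values there rest on few UMIs. Slc15a4, a histidine transporter of the endosome, was at 147 CPM in CON, 59.7 CPM in HFD and 113 CPM in CCL4, and its partner Tasl had 44 UMIs in CON, 0 UMIs in HFD and 2 UMIs in CCL4. The proteases Ctsb and Ctsl, which cut the receptors to their active form, were at 1151 CPM in CON, 1021 CPM in HFD and 712 CPM in CCL4 and at 739 CPM in CON, 888 CPM in HFD and 806 CPM in CCL4. Downstream, Myd88 was at 25.6 CPM in CON, 19.9 CPM in HFD and 18.2 CPM in CCL4 and Irf7, the factor that switches on interferon genes, at 53.7 CPM in CON, 46.4 CPM in HFD and 29.1 CPM in CCL4. Irf5 was at 58.8 CPM in CON, 39.8 CPM in HFD and 18.2 CPM in CCL4. The 20 genes of TLR signal transduction summed to 1566, 935 and 832 CPM in CON, HFD and CCL4, led by the NF-κB inhibitor Nfkbia. The 9 cytosolic nucleic acid sensing genes in the files summed to 157, 113 and 113 CPM, led by Sting1, Mavs and Sting1 in turn. Of these lists 6 and 0 genes reached the level tested against other cells, and 0 were past the fold.

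No interferon alpha or beta transcript was seen in any pDC. Of 21 interferon genes listed, 20 had 0 UMIs in CON and HFD and all 21 had 0 in CCL4, and the exception was Ifng with 3 UMIs in CON and 1 in HFD. A count of 0 allows up to 3.83 CPM in CON, 19.9 CPM in HFD and 10.9 CPM in CCL4 for any one of them. The receptor genes Ifnar1, at 230.1 CPM in CON, 166 CPM in HFD and 109 CPM in CCL4, and Ifnar2, at 189 CPM in CON, 166 CPM in HFD and 76.3 CPM in CCL4, were present, while Ifnlr1, the receptor chain for interferon lambda, had 0 UMIs. Of 48 interferon-stimulated genes 7 reached the level tested against other cells, and 1 of these, Bst2, was past the fold, beside 2.97% of all genes tested. Isg15, a classical target, was at 21.7 CPM in CON, 26.5 CPM in HFD and 14.5 CPM in CCL4 in pDCs and at 53.9 CPM in CON, 32.8 CPM in HFD and 28.9 CPM in CCL4 in T cells, and Ifit1 had 1 UMI in CON, 0 UMIs in HFD and 0 UMIs in CCL4.

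Surface TLRs and the neurotrophin genes were rare. Tlr4, the receptor for lipopolysaccharide, had 3 UMIs in CON and 0 in HFD and CCL4, and Bdnf, the neurotrophin the study is about, had 2 UMIs in CON, 3 UMIs in HFD and 1 UMI in CCL4 in pDCs. The TLR4 co-receptor Ly96 was at 15.3 CPM in CON, 0 CPM in HFD and 32.7 CPM in CCL4. Ly86 (MD-1), which with Cd180 forms a TLR4-like complex, was at 328 CPM in CON, 119 CPM in HFD and 167 CPM in CCL4, above T cells (2.02 to 5.68 CPM). Cd180 was at 104 CPM in CON, 6.63 CPM in HFD and 50.9 CPM in CCL4, with UMIs in 62 CON cells and 1 HFD cell.

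**Figure D4:**
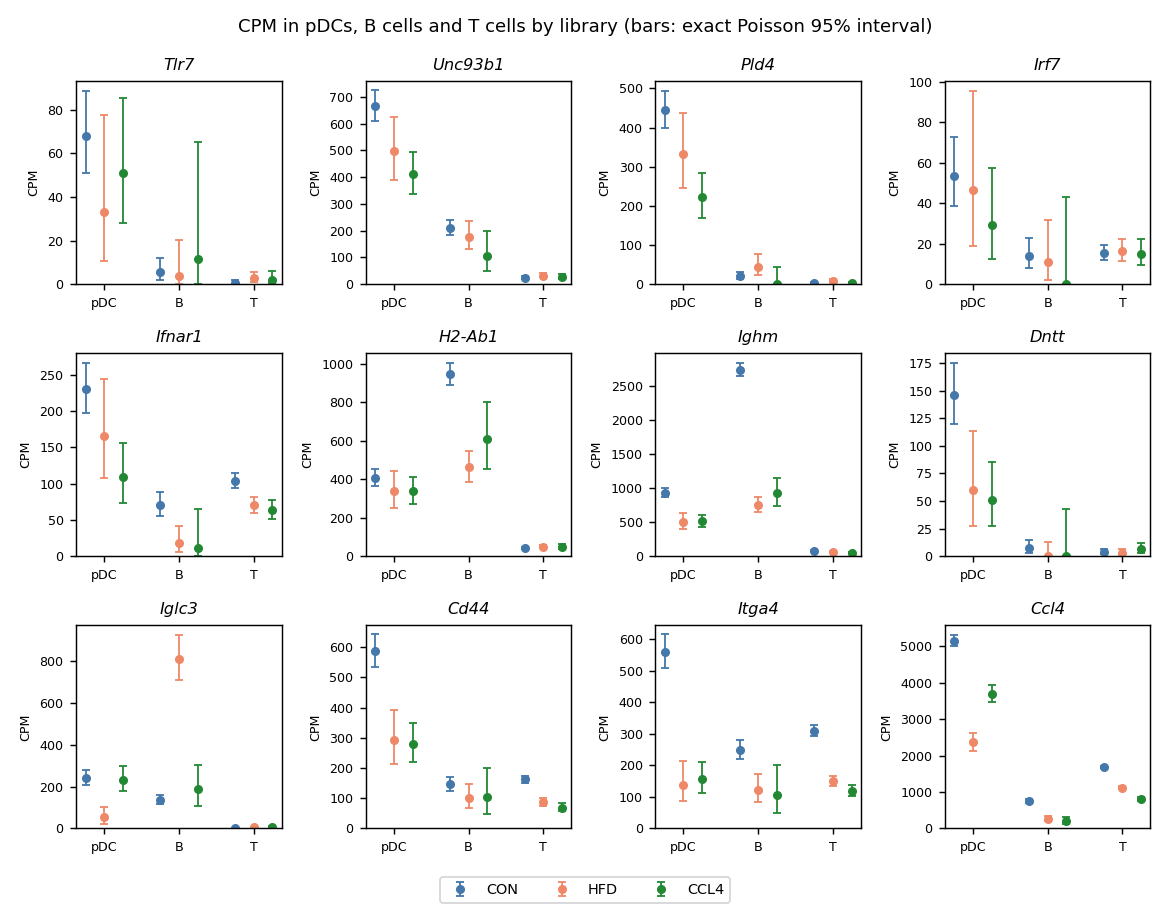
CPM (y axis, linear, from 0) of 12 genes in pDCs, B cells and T cells (x axis) of the CON, HFD and CCL4 libraries; bars are exact Poisson 95% intervals of the summed UMIs. Unc93b1, Pld4 and Ccl4 are highest in pDCs in each library, H2-Ab1 is higher in B cells in CON and CCL4 with overlapping intervals in HFD, and Iglc3 is lowest in HFD among the 3 pDC values.

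Most pDCs held Ccl4 (MIP-1β), a chemokine that recruits immune cells. It was at 5157 CPM (4999 to 5319) in CON, 2367 CPM (2128 to 2626) in HFD and 3705 CPM (3481 to 3939) in CCL4 in pDCs, against 1686 CPM in CON, 1119 CPM in HFD and 808 CPM in CCL4 in T cells and 757 CPM in CON, 272 CPM in HFD and 199 CPM in CCL4 in B cells. The share of pDCs with a Ccl4 UMI was 89.4% in CON, 78.2% in HFD and 86.8% in CCL4. Thinned to 1000 UMIs it was 77% in CON, 64% in HFD and 75.5% in CCL4, beside 33.1% in CON, 29.5% in HFD and 30.5% in CCL4 for T cells and 1.54% in CON, 1.07% in HFD and 2.89% in CCL4 for hepatocytes. Within a library the pDCs varied widely, from 0 to 193 Ccl4 UMIs in CON (median 13), 0 to 73 in HFD (median 3) and 0 to 66 in CCL4 (median 7). In CON and HFD conventional DCs held 2878 and 746 CPM. Ccl3, a related chemokine, was at 403 CPM in CON, 119 CPM in HFD and 196 CPM in CCL4. Ccl5 was at 319.6 CPM in CON, 172 CPM in HFD and 83.5 CPM in CCL4, far under T cells (5505 to 8411 CPM). Il12a had 42 UMIs in CON, 3 UMIs in HFD and 5 UMIs in CCL4, Il12b had 0, and Tnf had 10 UMIs in CON, 1 UMI in HFD and 5 UMIs in CCL4. The 47 Il6 UMIs in CON lay in 2 cells.

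Receptors for homing and adhesion included Cd44 at 587 CPM in CON, 292 CPM in HFD and 279.7 CPM in CCL4 and Itga4 at 561 CPM in CON, 139 CPM in HFD and 156 CPM in CCL4. Cxcr4 was at 212 CPM in CON, 59.7 CPM in HFD and 72.6 CPM in CCL4, Cxcr3 at 37.1 CPM in CON, 6.63 CPM in HFD and 25.4 CPM in CCL4 and Ccr7 at 24.3 CPM in CON, 6.63 CPM in HFD and 18.2 CPM in CCL4. Flt3, the growth factor receptor of dendritic cells, was at 109 CPM in CON, 33.1 CPM in HFD and 32.7 CPM in CCL4, and Csf2rb2, the IL-3-specific beta chain, at 85.7 CPM in CON, 119 CPM in HFD and 76.3 CPM in CCL4. Csf2rb2 was the only 1 of 5 tested growth and survival genes past the fold against the 4 other groups, beside 2.97% of all genes tested. Il7r was at 249 CPM in CON, 206 CPM in HFD and 134 CPM in CCL4, above B cells (11.7 to 24.1 CPM), beside 439.7, 179 and 139 CPM in T cells.

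Adaptors and inhibitory receptors had 6 of 11 tested genes past the fold, beside 2.97% of all genes tested (Lair1, Ptprs, Bst2, Cd300c, Clec12a and Pacsin1, of which 5 are identity genes too, listed as known pDC genes). Tyrobp (DAP12), the partner of Siglec-H, was at 2290 CPM in CON, 1604 CPM in HFD and 1645 CPM in CCL4 and so above conventional DCs (354 to 1074 CPM). Fcer1g was at 984 CPM in CON, 822 CPM in HFD and 541 CPM in CCL4 and so under conventional DCs (1205 to 1517 CPM). Clec12a, an inhibitory lectin, was at 226 CPM in CON, 126 CPM in HFD and 199.8 CPM in CCL4, and Klra17, a Ly49 family member, at 124 CPM in CON, 53 CPM in HFD and 43.6 CPM in CCL4.

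MHC class II levels lay under those of conventional DCs. H2-Ab1, an MHC class II beta chain, was at 408 CPM (364 to 455) in CON, 338 CPM (252 to 445) in HFD and 338 CPM (273 to 414) in CCL4 in pDCs, 946 CPM in CON, 461 CPM in HFD and 609.5 CPM in CCL4 in B cells and 2477 to 3454 CPM in conventional DCs, whose gate asked for H2-Ab1, with T cells at 42.7 to 50.3 CPM. Cd74, the invariant chain, was at 2388 CPM in CON, 1081 CPM in HFD and 966 CPM in CCL4, against 3994 to 10818 CPM in conventional DCs, and Ciita, the class II transactivator, had 19 UMIs in CON, 0 UMIs in HFD and 3 UMIs in CCL4. Of 7 tested class II and 12 tested class I genes 0 were past the fold, beside 2.97% of all genes tested. The costimulatory genes Cd80, Cd86 and Cd40 had 1, 6 and 0 UMIs over all 341 pDCs. Cd200, an inhibitory ligand, was at 52.4 CPM in CON, 66.3 CPM in HFD and 72.6 CPM in CCL4 and past the fold, and Cd47, which signals against phagocytosis, at 859 CPM in CON, 689.5 CPM in HFD and 472 CPM in CCL4.

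Lymphoid genes stood beside the dendritic ones. Ighm, the immunoglobulin mu chain, was at 933 CPM (867 to 1003) in CON, 504 CPM (397 to 631) in HFD and 512 CPM (431 to 604) in CCL4 and was found in 172 of 180, 38 of 55 and 75 of 106 pDCs. Of these cells 170, 38 and 73 had no UMI of Cd79a, the B cell receptor chain, and 133, 16 and 55 had none of Igkc either. Thinned to 1000 UMIs the share with Ighm was 60.4% in CON, 38.3% in HFD and 38.5% in CCL4, beside 7.01% in CON, 4.94% in HFD and 4.05% in CCL4 for T cells and 0.0786% in CON, 1.06% in HFD and 3.9% in CCL4 for hepatocytes. Dntt, the terminal transferase of V(D)J joining, was at 146 CPM in CON, 59.7 CPM in HFD and 50.9 CPM in CCL4 and past the fold, while Rag1 had 0 UMIs and Rag2 had 1. Iglc3, a lambda light chain whose near-identical copies can share reads, was at 243 CPM in CON, 53 CPM in HFD and 232 CPM in CCL4. Igkc, at 124 CPM in CON, 285 CPM in HFD and 222 CPM in CCL4, was also found in cells that do not make it, as HFD T cells held 4460 CPM and HFD hepatocytes 246 CPM.

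Genes of known pDC subsets, other than Siglec1, were found in part of the cells, which depends on depth and does not show that the other cells lack them. Thinned to 1000 UMIs, the share with Ccr9 was 69.5% in CON, 45.4% in HFD and 53.2% in CCL4, that with Ly6d 89% in CON, 83.2% in HFD and 67.4% in CCL4 and that with Ly6c2 50.0% in CON, 36.3% in HFD and 37% in CCL4. Unthinned these were 93.3% in CON, 76.4% in HFD and 78.3% in CCL4 for Ccr9, 98.3% in CON, 98.2% in HFD and 87.7% in CCL4 for Ly6d and 83.3% in CON, 61.8% in HFD and 61.3% in CCL4 for Ly6c2. In hepatocytes the thinned shares in CON, HFD and CCL4 were 0.227%, 0% and 0.071% for Ccr9, 11.4%, 2.03% and 4.23% for Ly6d and 0.25%, 0.234% and 0.507% for Ly6c2. Cd4 was found in 42, 8 and 18 pDCs and Cd8a in 33, 4 and 8, with 11, 2 and 0 holding both. Thinned to 1000 UMIs the shares of pDCs were 9.07%, 5.97% and 7.86% for Cd4 and 7.62%, 3.16% and 3.49% for Cd8a, beside at most 0.0681% and 0.373% of hepatocytes. Axl and Siglec1, which mark transitional dendritic cells, had 5 and 0 UMIs over the 3 libraries, and Cx3cr1 had 9 UMIs in CON, 3 UMIs in HFD and 0 UMIs in CCL4. Lyz2, a myeloid gene linked to non-canonical pDCs, had 67, 7 and 1 UMIs, of which 25 of the 67 lay in 1 of 10 cells.

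Paralogs of the gate genes Cox6a2 and Klk1 were measured as well. Cox6a1, the ubiquitous form of Cox6a2, was at 217 CPM in CON, 318 CPM in HFD and 367 CPM in CCL4 in pDCs and at 223 to 477 CPM in the other groups. Cox7a1, Cox8b and Cox4i2, other tissue-specific subunits, had 4, 0 and 0 UMIs over all pDCs. Of 9 kallikreins beside Klk1 only Klk1b27 had more than 1 UMI, with 60 UMIs in CON, 4 UMIs in HFD and 7 UMIs in CCL4, and was at 76.7 CPM in CON, 26.5 CPM in HFD and 25.4 CPM in CCL4. Like Klk1 it was higher in pDCs than in T cells (0.673 to 1.75 CPM), but kallikrein copies can share reads. The 16 cell cycle genes summed to 611, 219 and 116 CPM, led by Pcna, with Mki67 in 7 CON pDCs and in 0 of the other libraries. Of 17 tested secretory pathway genes 0 were past the fold, beside 2.97% of all genes tested. Xbp1, Herpud1 and Sec61b were at 451 CPM in CON, 272 CPM in HFD and 199.8 CPM in CCL4, at 396 CPM in CON, 371 CPM in HFD and 766 CPM in CCL4 and at 1172 CPM in CON, 1067 CPM in HFD and 981 CPM in CCL4.

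Levels were next compared between conditions, gene by gene. Among 2060 genes outside the gate and outside mitochondrial and ribosomal protein genes with at least 100 CPM in CON or HFD, 294 (14.3%) were at least 2-fold higher and 304 (14.8%) at least 2-fold lower in HFD than in CON on the CPM + 10 scale. Among 2055 genes, 341 (16.6%) were higher and 471 (22.9%) lower in CCL4 than in CON. Among 1734 genes, 73 (4.21%) were higher and 109 (6.29%) lower in CCL4 than in HFD. The comparisons share their libraries. After scaling to the median of pDC-enriched genes the genes tested split into 658 higher and 46 lower in HFD against CON, 724 and 54 in CCL4 against CON, and 157 and 58 in CCL4 against HFD. Genes enriched in pDCs, at 2-fold or more above all other barcodes in the library where they were higher, were 1 of the 294 and 179 of the 304 in HFD, 0 of the 341 and 268 of the 471 in CCL4 against CON, and 4 of the 73 and 31 of the 109 in CCL4 against HFD. A gene could pass both the level and the enrichment through the library where it was higher, so this split is partly set by the choice of genes. With both judged on the mean of the 2 libraries, a choice made after seeing the data, enriched genes were 1 of 216 higher and 89 of 187 lower genes in HFD against CON. In the same way they were 0 of 258 and 156 of 297 in CCL4 against CON, and 2 of 56 and 11 of 63 in CCL4 against HFD.

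The median pDC-enriched gene was at 0.601 times its CON level in HFD (597 genes, -0.73 on the log2 scale) and at 0.513 times in CCL4 (572 genes, -0.96), and CCL4 against HFD was at 0.809 (372 genes, -0.31). Judged on the mean of the 2 libraries the medians were 0.648 (433 genes, -0.63 on the log2 scale), 0.539 (398 genes, -0.89) and 0.866 (283 genes, -0.21). The first rule applied to T cells gave medians of 0.534, 0.479 and 0.855, and to B cells 0.434, 0.443 and 1.12. These shifts lie alongside a hepatocyte share of 3.20%, 10.3% and 13.95%, whose part in them was not tested. Relative to the median, 26 of 597 pDC-enriched genes (4.36%) were at least 2-fold higher and 26 (4.36%) lower in HFD than in CON. In CCL4 against CON these were 10 (1.75%) higher and 24 (4.2%) lower of 572. In CCL4 against HFD they were 14 (3.76%) higher and 10 (2.69%) lower of 372. Genes could enter through the library where they were higher. These counts and the genes named from them are partly set by that choice. The log2 values below are relative to these medians unless a CPM ratio is named.

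The identity genes had few members past the fold, as had all pDC-enriched genes (4.36% in each direction in HFD, and 1.75% higher and 4.2% lower in CCL4), so the counts are no result about the list. Of 21 pDC-enriched identity genes, 0 were past 2-fold in HFD against CON relative to the median (list median 0.18 on the log2 scale), and in CCL4 against CON 2 were lower, Ly6a and Paqr5 (list median 0.12). Bst2 was at 0.11 in HFD and 0.12 in CCL4, and its CPM ratios to CON were 0.647 (95% interval 0.565 to 0.738) and 0.557 (95% interval 0.499 to 0.621). Irf8 was at 0.33 and -0.21, and Ly6d at 0.18 and -0.16. Of 10 enriched transcription factors 0 were past the fold in either comparison. Ly6a (Sca-1), an interferon-inducible surface protein, was at 821 CPM in CON, 332 CPM in HFD and 171 CPM in CCL4, with CPM ratios to CON of 0.404 (95% interval 0.297 to 0.539) and 0.208 (95% interval 0.151 to 0.28). It lay lower than CON in both, while T cells stood at 1.41 and 0.50 relative to their own medians. The gate genes, whose members were chosen on them, were at -0.30 to 0.19 in HFD and -0.30 to 0.63 in CCL4.

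Sensing, interferon and presentation genes are given with the same background, against which their small counts are no result about the lists. Unc93b1 was at 0.32 in HFD and 0.28 in CCL4 against CON, and Tlr7, at -0.12 and 0.61, had a CPM ratio of 0.489 (95% interval 0.153 to 1.22) in HFD, which holds 1. None of the enriched sensing genes (6 in HFD, 5 in CCL4) was past the fold against CON, and Slc15a4 alone was past it in CCL4 against HFD, at 1.12, with a CPM ratio of 1.89 (95% interval 0.877 to 4.51), an interval that holds 1. Of 5 enriched interferon-stimulated genes 1 was past it, in CCL4, Ifi203, a nucleic acid sensor of the AIM2-like family. It was at 248 CPM in CON, 99.5 CPM in HFD and 36.3 CPM in CCL4, or -0.50 and -1.52 against CON, beside -1.38 in B cells and -0.40 in T cells for CCL4. The 7 enriched class II genes had list medians of 0.22 and 0.27, with H2-Ab1 at 0.47 and 0.70 and Cd74 at -0.40 and -0.34.

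Hsph1 (HSP110), a heat shock chaperone, was among the 10 lowest pDC-enriched genes in HFD and in CCL4. It was at 398 CPM (355 to 444) in CON, 39.8 CPM (14.6 to 86.6) in HFD and 40.0 CPM (19.9 to 71.5) in CCL4, with UMIs in 126, 6 and 10 cells. It reached 100 CPM in CON only, so it was listed through its CON level. Relative to the median it was at -2.30 and -2.07, beside -1.23 and -1.39 in T cells and -0.71 and -0.65 in B cells. Hsp90aa1, the inducible HSP90, was at 1090 CPM in CON, 225 CPM in HFD and 287 CPM in CCL4, or -1.49 and -0.93. In HFD it stood at -1.02 in B cells and -0.68 in T cells, and its CPM + 10 ratio in B cells, 0.213, was near the 0.214 of pDCs. Hspa4l, an HSP110 relative also listed through its CON level, was at 115 CPM in CON, 13.3 CPM in HFD and 7.26 CPM in CCL4. It stood at -1.69 and -1.90 relative to the median, beside -1.95 and -1.98 in B cells and -0.37 and -0.17 in T cells. Of the 19 genes of the stress list (immediate-early and heat shock genes), all tested, 10 were at least 2-fold lower in HFD and 11 in CCL4 than in CON and 0 were higher, without reference to the median, beside 14.8% and 22.9% of all genes tested that were lower. Only 13 of the 19 reached 100 CPM in HFD or CCL4, so the others were tested through their CON level. The list summed to 9437, 5138 and 4951 CPM in pDCs of CON, HFD and CCL4. It was lower than CON in T cells too, at 9986, 7446 and 5881 CPM, and in B cells, at 10148, 6845 and 5357 CPM, but higher than CON in gated hepatocytes, at 2521, 2876 and 4700 CPM. Of the 19 genes, 3 were enriched in pDCs. The third, Hspa1a, whose near-identical copy can share reads, reached 100 CPM in CON only. It was at 285 CPM in CON, 66.3 CPM in HFD and 72.6 CPM in CCL4. Fos, an immediate-early gene of the same list, was at 661 CPM in CON, 524 CPM in HFD and 454 CPM in CCL4 and Jund at 1415 CPM in CON, 1399 CPM in HFD and 908 CPM in CCL4.

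Cirbp, a cold-induced RNA-binding protein, was among the 10 highest pDC-enriched genes in HFD and in CCL4. It was at 80.5 CPM in CON, 239 CPM in HFD and 152 CPM in CCL4. Among pDC-enriched genes it was the one most above the median in HFD, at 2.19, with 1.81 in CCL4. T cells stood at 1.58 and 1.55 and B cells at 1.24 and 1.42. Rbm3 was at 295 CPM in CON, 497 CPM in HFD and 450.4 CPM in CCL4, or 1.47 in HFD and 1.55 in CCL4. In HFD against CON it was not pDC-enriched, so it could be listed among the 10 highest in CCL4 only. Rnh1, the ribonuclease inhibitor, was the highest pDC-enriched gene in CCL4 at 1.86, beside 1.47 in T cells and 1.75 in B cells. Sh3bgr was among the 10 highest in both, at 1.51 and 1.28. The others of the 10 highest were Nsmce1, Cmas, Svbp, Tamalin, Utp3, Emc10, Ppp6r3 and Sec61a1 in HFD (1.19 to 1.54) and Sub1, Med10, Rnf19b, Tent5c, Arih1 and Rnd3 in CCL4 (1.02 to 1.25). These are positions relative to the median. The interval of the CPM ratio to CON held 1 for Tamalin, Utp3, Emc10, Ppp6r3 and Sec61a1 in HFD and for Sh3bgr, Med10, Rnf19b, Tent5c, Arih1 and Rnd3 in CCL4. A gene hardly detected in T cells, such as Sh3bgr, lies above 0 there by construction, since its CPM + 10 ratio is near 1 before the median is subtracted.

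**Figure D5:**
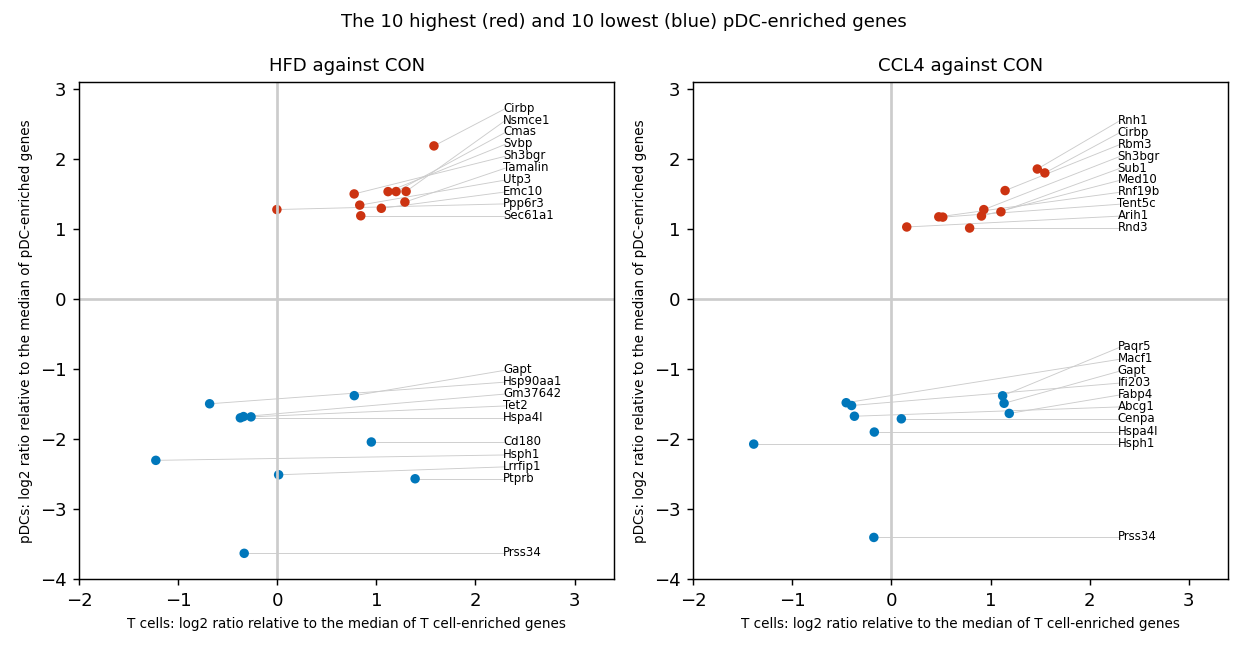
log2 ratio to CON in pDCs (y axis, relative to the median of pDC-enriched genes) against that in T cells (x axis, relative to the median of T cell-enriched genes) for the 10 highest (red) and 10 lowest (blue) pDC-enriched genes in HFD (left) and CCL4 (right); each point is a gene. Cirbp lies high for both cell types and Hsph1 low for both, while genes hardly detected in T cells (Sh3bgr, Gapt) lie right of 0 by construction.

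The other low genes were of several kinds. Gapt, Lrrfip1, Tet2, Abcg1, Paqr5 and Cenpa reached 100 CPM in CON only, so they were listed through their CON level. Gapt, an adaptor that binds Grb2, was at 262 CPM in CON, 53 CPM in HFD and 40.0 CPM in CCL4, with UMIs in 114, 8 and 11 cells, or -1.38 and -1.48, and T cells, where it is hardly made, gave 0.78 and 1.14. Lrrfip1, a cytosolic nucleic acid sensor, was at 147 CPM in CON and 6.63 CPM in HFD (40.0 CPM in CCL4), with UMIs in 79 CON cells and 1 HFD cell. Tet2, a DNA demethylase, was at 114 CPM in CON, 13.3 CPM in HFD and 40.0 CPM in CCL4, Macf1, a cytoskeletal linker, at 319.6 CPM in CON, 139 CPM in HFD and 50.9 CPM in CCL4, Abcg1, a cholesterol exporter, at 142 CPM in CON, 39.8 CPM in HFD and 14.5 CPM in CCL4, Paqr5 at 151 CPM in CON, 99.5 CPM in HFD and 21.8 CPM in CCL4 and Cenpa at 123 CPM in CON, 86.2 CPM in HFD and 10.9 CPM in CCL4. Gm37642 was at 395 CPM in CON, 66.3 CPM in HFD and 102 CPM in CCL4. Itga4 and Itgb7, which pair as the gut-homing integrin α4β7, were both past the fold in HFD, at -1.20 and -1.19, and at -0.82 and -0.23 in CCL4. They were 2 of 9 enriched homing genes, beside 4.36% of all pDC-enriched genes lower in HFD. Ptpn6 (SHP-1) was past it in HFD, at -1.03, and at -0.44 in CCL4.

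Some of the lowest genes rested on few cells. All 153 Prss34 UMIs, a basophil and mast cell protease gene, lay in 2 CON cells, 135 of them in 1, and all 74 UMIs of the basophil gene Mcpt8 lay in 2 CON cells, 60 of them in 1. Ptprb, an endothelial phosphatase, lay in 8 CON cells, and 51 of the 142 Fabp4 UMIs in CON lay in 1 of 19. Without the 5% of members with the most UMIs, and under the 3 other choices of members, Hsph1 stayed between -2.48 and -2.22 in HFD and Cirbp between 2.03 and 2.29, and Ptprb between -2.56 and -1.88, on 1 UMI in HFD. In CCL4 Ptprb ran from -1.26 to -0.17.

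Among pDC-enriched genes, Iglc3 was furthest apart between CCL4 and HFD. It was at 232 CPM in 45 of 106 CCL4 cells and 53.0 CPM in 8 of 55 HFD cells. Its CPM ratio was 4.38 (95% interval 2.1 to 10.6), or 2.25 relative to the median, against -2.21 in B cells, and the CON level of 243 CPM was near that of CCL4. Bmp2k, Nek7 and P2ry14, a receptor for UDP-glucose, were next, at 1.51, 1.35 and 1.34, on 7 to 11 HFD UMIs each. The other 6 (Chaserr, Gm45221, Polr2a, Hnrnpul1, Fubp1 and Mapkapk2) had CPM ratios whose intervals held 1. Lowest among the pDC-enriched genes were Frmd4a at -1.56 (6 against 16 UMIs) and Ppp6r3 at -1.50 (9 against 21). Next came Man2a2, Cdc42se1, Ppp1r11, Srebf2, Arpc1b, Chdh, Alkbh1 and Gria3 (-1.01 to -1.22). The 2 tested neutrophil genes, S100a8 and S100a9, which were not pDC-enriched, had a median log2 ratio of -4.33 without reference to the median. This rests on few cells, since in HFD 26 of the 34 S100a8 UMIs lay in 1 of 5 cells and 29 of the 34 S100a9 UMIs in 1 of 4. Ccl4 was higher in CCL4 than in HFD, with a CPM ratio of 1.56 (95% interval 1.39 to 1.77), or 0.95 relative to the median, and T cells stood at -0.24. Against CON its CPM ratio was 0.459 in HFD and 0.718 in CCL4, or -0.39 and 0.49 relative to the median.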

How the data were processed

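Cells of 3 libraries, 1 per condition, were measured by droplet-based 3′ single-cell RNA-seq. The deposited matrices hold UMI counts per gene and barcode, which the authors made with Cell Ranger 7.2.0 per the file headers, and Seurat is named in the submitters' processing notes. The sources name different genome builds (mm10 and GRCm39), so no coordinate was taken from the matrices, and promoters are those of RefSeq on GRCm38.p6. The members and gene lists were chosen with earlier results of these data known.

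UMIs of the members were summed per library and divided by their total to give CPM. The 95% intervals are exact: Poisson for levels, conditional binomial for ratios, and Clopper-Pearson where a share is given, and a count of 0 allows up to 3 UMIs. These cover counting error only. Folds were taken on CPM + 10. Other cells were gated in the same libraries, each with 0 Siglech UMIs: B cells (at least 2 Cd79a and 1 Ms4a1 UMIs), T cells (at least 1 Cd3e UMI and 3 UMIs over 5 T cell receptor complex genes), conventional DCs (at least 4 UMIs over Xcr1, Clec9a, Cd209a, Clec10a, Flt3 and Zbtb46, with H2-Ab1) and hepatocytes (at least 15% of UMIs in 8 hepatocyte genes, no Ptprc). No doublet caller was run. For shares of cells with a UMI, cells were thinned to 1000 UMIs. Named genes were those of the lists, the 10 highest and 10 lowest pDC-enriched genes per comparison and the 20 genes furthest above the other groups, and genes named for resting on few cells, such as Mcpt8, were added after their values were seen. Scaling to the median of pDC-enriched genes was also chosen after seeing the data. Scripts ran in Python 3.11.15 with numpy 2.4.6, scipy 1.17.1 and pandas 2.3.3, and were tested on simulated data. Many genes of the lists enter only through the counts or sums of their list, and a few genes are not reported here.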

Additional observations from a re-analysis of the deposited data

How the results depend on the processing

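No paired analysis was possible because each condition had 1 library, and no replicate could be left out. Of 70 alternatives to the counts of genes between conditions 48 stayed within 1.5 times and 22 did not, and of 7 to the count above other cells 1 did not. Of 12 alternatives to the shares of barcodes 3 left the 95% binomial interval of the share. Of 48 to the shares of pDCs with a UMI 26 differed from the share thinned to 1000 UMIs by more than the distance from the middle to the ends of the binomial interval of the unthinned share. With at least 50 CPM in place of 100, HFD against CON gave 491 higher and 636 lower genes, CCL4 against CON 876 lower, and CCL4 against HFD 157 higher and 310 lower. With at least 200 CPM these were 174 and 127 for HFD against CON, 214 and 201 for CCL4 against CON, and 45 and 39 for CCL4 against HFD. The pDC share was 1.28% in CON without members holding UMIs of other cell types, and 0.609% in HFD and 1.22% in CCL4 with at least 1 Siglech UMI. The following were chosen after seeing the data. Relative to the median of pDC-enriched genes the counts were 658 and 46, 724 and 54, and 157 and 58. With CPM taken over UMIs outside the estimated hepatocyte part, which rescales and subtracts no gene, they were 1312 and 73 for HFD against CON, 1907 and 59 for CCL4 against CON, and 714 higher for CCL4 against HFD. Without conventional DCs 134 genes were above the other cells. Depth limits HFD most, where 1 UMI in the summed pDCs is a level of 6.63 CPM for a gene such as Lrrfip1.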
